A study of Mus musculus with 4 samples.

Results

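The 9 genes described here make the mouse class II antigen presentation route: the chains H2-Aa, H2-Ab1 and H2-Eb1, the invariant chain Cd74, the peptide editors H2-DMa, H2-DMb1 and H2-DMb2, their restrainer H2-Oa, and Ciita, the coactivator of the others. They were chosen by name, each matched 1 row in all 4 gene tables, and they are 9 of 31253 genes counted. Their levels were followed in dendritic cells, mononuclear phagocytes and B cells, and in endothelium, fibroblasts and keratinocytes.

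Class II molecules show peptides from endosomes to helper T cells. The alpha and beta chains leave the endoplasmic reticulum bound to the invariant chain, lysosomal proteases trim that chain, and the H2-DM dimer swaps its last fragment for a peptide, while H2-O holds H2-DM back. Ciita binds no DNA itself: it is recruited to factors on class II promoters, is made constantly in dendritic and B cells, and is switched on by interferon-gamma in macrophages and many tissue cells.

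The study sequenced single gingival cells of mice as 4 libraries, and each group is a single library, so differences have no replicates behind them and carry no p-values. The groups were Itga9-Lyz2-cKO with periodontitis (cKO PD), Itga9-Lyz2-cHet with periodontitis (cHet PD), and the controls of the same 2 genotypes (cKO control and cHet control). Periodontitis was set up in transgenic mice with a silk thread tied at the upper second molar plus Porphyromonas gingivalis, and gingiva was taken on day 14; what the controls received, and their day, is not given. How many animals made a library, their age, and the alleles behind cHet are not given in the labels, and no group without the Lyz2 part of the genotype was analysed here.

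Lyz2 is a myeloid gene whose promoter commonly drives Cre. In phagocytes it stood at 5256 CPM (a gene's UMIs scaled to a class total of 1e6) in cKO PD and 9800 CPM in cHet PD, against 2200 CPM in cKO control and 6259 CPM in cHet control. In dendritic cells it lay between 56.0 and 412 CPM, so those cells carried little of the transcript whose promoter the label names. Itga9, the targeted integrin subunit, had lower levels over the phagocytes of both cKO libraries: 20.2 CPM (9 UMIs) in cKO PD against 94.6 CPM in cHet PD, and 44.8 CPM in cKO control against 142 CPM in cHet control. Within 1 phagocyte cluster with Arg1 among its leading genes, described further on, it was at 74.9 CPM (34.2 to 142) in cKO PD against 112 CPM (90.4 to 136) in cHet PD, with overlapping intervals, and at 65.9 CPM (31.6 to 121) in cKO control against 262 CPM (180 to 368) in cHet control. In dendritic cells it had 0 UMIs in cKO PD, 1 in cHet PD and 0 in both controls. A monocyte-led cluster, with 98 of 129 phagocytes of cKO PD and 53 of 220 of cHet PD, held 0 and 1 UMIs of Itga9 there. Fibroblasts, with at most 38.8 CPM of Lyz2, also differed. Their Itga9 stood at 47.4 CPM in cKO PD and 11.6 CPM in cHet PD, against 33.0 CPM in cKO control and 90.5 CPM in cHet control. In fibroblasts the order of cKO and cHet was thus opposite in PD and in controls. Whether the genotype had a part in these values was not tested. Where in Itga9 the deletion lies is not stated, so reads outside it may remain.

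Barcodes began at 500 UMIs in both PD libraries and at 1501 UMIs in both controls, which were deeper, and median UMIs per barcode were 2509 in cKO PD and 2934 in cHet PD, against 5076 in cKO control and 5292 in cHet control. Libraries shared between 65 and 116 barcodes, at most 1.32% of the smaller library, and doublets were not removed. Cells named gland or airway epithelium numbered 617 in cKO control, 39 in cHet control and 0 in either PD library. That 0 depends on the naming rule. A cluster led by Car6, Ltf and Mfsd4a was left unnamed, with 642 cells of cKO PD, 29 of cHet PD, 237 of cKO control and 188 of cHet control. At Leiden resolution 2 a cluster led by Car6 and Mfsd4a was named gland or airway epithelium, with 264 cells of cKO PD and 8 of cHet PD. The dissected tissue was thus not the same mix throughout. Dendritic cells numbered 22 in cKO PD, 74 in cHet PD, 26 in cKO control and 31 in cHet control, and phagocytes numbered 129, 220, 60 and 44 in the same libraries. B cells numbered only 7, 13, 3 and 9. The 9 genes were kept out of clustering and naming, so their levels did not shape these classes.

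All 7 H2 genes lie in the class II region of chromosome 17 (GRCm38, GENCODE M21): H2-Oa at chr17:34092340-34095234, H2-DMa at chr17:34119541-34139101, H2-DMb2 at chr17:34143307-34151555, H2-DMb1 at chr17:34153072-34160230, H2-Ab1 at chr17:34257689-34269419, H2-Aa at chr17:34282744-34287823 and H2-Eb1 at chr17:34305867-34316674. H2-Aa is on the minus strand and the others are on the plus strand. Ciita lies on the plus strand at chr16:10480059-10528418. H2-DMb1 and H2-DMb2 are near copies: 22.7% of the 50-base stretches of H2-DMb1 transcripts also occur in H2-DMb2, and 21.2% of those of H2-DMb2 occur in H2-DMb1, so reads may have been split between them and both values are uncertain. Of the other 7 genes, only H2-Aa shared any such stretch with another gene (0.488%).

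Ciita acts through a conserved promoter module of class II genes whose last box, the Y box, holds ATTGG (its reverse complement is CCAAT). RefSeq promoters (GRCm38.p6, 250 bases before to 50 after a gene start) were at hand for 6 members, 7 sequences in all. They were searched on both strands for ATTGG, and for AAC with ATTGG 27 or 28 bases later, letters chosen after these promoters had been read. ATTGG alone was in 6 of the 7 and in 37.4% of all 32851 promoters. The spaced pair was in 5 of the 7 and in 1.3% of all promoters, each time on the gene strand. The 5 windows are shown because they are the stretch that these genes share; capitals mark AAC and ATTGG, and neither is shown to be a site in these cells. They run 5′ to 3′ on the gene strand.
H2-Aa, chr17:34287859-34287910, minus strand: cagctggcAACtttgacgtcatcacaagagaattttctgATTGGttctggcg
H2-Eb1, chr17:34305770-34305820, plus strand: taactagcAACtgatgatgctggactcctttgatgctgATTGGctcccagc
H2-DMb1, chr17:34153091-34153142, plus strand: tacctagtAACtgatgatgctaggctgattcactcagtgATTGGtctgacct
H2-DMb2, chr17:34145120-34145171, plus strand: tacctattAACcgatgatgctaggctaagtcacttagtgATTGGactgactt
H2-Oa, chr17:34092297-34092348, plus strand: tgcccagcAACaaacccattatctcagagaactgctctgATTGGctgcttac
The gap was 27 bases in H2-Eb1 and 28 in the other 4. The 2 H2-DMa promoters did not hold the spaced pair. H2-Ab1, Cd74 and Ciita were not searched.

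Dendritic cells carried the highest level of every chain gene among the 6 classes in each library. H2-Aa, the alpha chain of H2-A, stood at 10282 CPM in cKO PD and 9209 CPM in cHet PD, against 11325 CPM in cKO control and 11055 CPM in cHet control. H2-Ab1, its beta chain, stood at 7352 CPM in cKO PD and 7185 CPM in cHet PD, against 8896 CPM in cKO control and 10776 CPM in cHet control. Cd74, on the plus strand at chr18:60803848-60812652, lay between 7218 and 9044 CPM. The PD level was 0.826 of the control level for H2-Ab1 in cKO (0.740 to 0.921) and 0.667 in cHet (0.628 to 0.708), and for H2-Aa 0.908 in cKO and 0.833 in cHet. None of H2-Aa, H2-Ab1 and Cd74 was 2-fold apart between any 2 libraries compared.

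H2-Eb1, the beta chain of H2-E, was at 4901 CPM in cKO PD and 5414 CPM in cHet PD, against 7520 CPM in cKO control and 8082 CPM in cHet control. The PD level was thus 0.652 of the control level in cKO (95% interval 0.571 to 0.742) and 0.670 in cHet (0.625 to 0.717). Intervals here are exact and cover counting error only. Ciita stood at 107 CPM (6 UMIs) in cKO PD and 173 CPM in cHet PD, against 168 CPM in cKO control and 133 CPM in cHet control, with intervals of the ratios that include 1. H2-Oa, known mainly from B cells and some dendritic cells, had 1, 1, 7 and 4 UMIs in dendritic cells of cKO PD, cHet PD, cKO control and cHet control, too few to compare.

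In dendritic cells of cHet the interval of the PD to control ratio of H2-DMa lay below that of H2-DMb2. In cKO the intervals of the H2-DM genes overlapped. H2-DMa, the alpha chain of the editor, was at 71.0 CPM (4 UMIs) in cKO PD and 76.3 CPM (22 UMIs) in cHet PD, against 291 CPM (52 UMIs) in cKO control and 389 CPM (85 UMIs) in cHet control. Both PD libraries lay below both controls: the ratio was 0.244 (0.0641 to 0.664) in cKO and 0.196 (0.117 to 0.316) in cHet. H2-DMb2, one of the beta chains, stood at 231 CPM in cKO PD and 256 CPM in cHet PD, against 302 CPM in cKO control and 293 CPM in cHet control, with ratios of 0.764 (0.383 to 1.42) and 0.875 (0.617 to 1.24). H2-DMb1, the other beta chain, lay between: 266 and 149 CPM in cKO PD and cHet PD, against 386 and 348 CPM in cKO control and cHet control, with ratios of 0.690 (0.367 to 1.22) and 0.428 (0.287 to 0.630).

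These dendritic values rest on few cells, and 3 of the 4 libraries had under the 40 cells set for calling a gene, so none counts as a call. Without the cell that held most of it, H2-DMa stood at 38.1 CPM in cKO PD and 67.7 CPM in cHet PD, against 260 CPM in cKO control and 354 CPM in cHet control. With every cell thinned to 1000 UMIs it was 52.6 CPM in cKO PD and 75.8 CPM in cHet PD, against 269 CPM in cKO control and 387 CPM in cHet control, with 1, 5, 7 and 12 UMIs left in those libraries. The thinned intervals overlapped in cKO, and did not in cHet (24.6 to 177 in cHet PD, 200 to 676 in cHet control). Median UMIs per dendritic cell were 2019 in cKO PD and 3593 in cHet PD, against 7451.5 in cKO control and 6829 in cHet control, and their part in the difference was tested only by that thinning.

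The make-up of the dendritic class also differed between libraries. Cd207, which marks Langerhans cells, was at 1048 CPM in cKO PD and 1022 CPM in cHet PD, against 129 CPM in cKO control and 1402 CPM in cHet control. In cKO control 18 of 26 cells fell into a sub-cluster led by Retnla, Lyz1 and Mgl2, whose markers were those of phagocytes and which held 3 of 22 cells of cKO PD, 10 of 74 of cHet PD and 6 of 31 of cHet control. Within a Langerhans-like sub-cluster, H2-DMa was at 109 CPM (12 cells) in cHet PD against 382 CPM (21 cells) in cHet control. In the Retnla sub-cluster it was at 154 CPM (10 cells) in cHet PD against 528 CPM (6 cells) in cHet control, and H2-Aa itself was at 2139 CPM in cKO PD and 5398 CPM in cHet PD, against 12155 CPM in cKO control and 10645 CPM in cHet control. A sub-cluster led by Fscn1 and Ccr7, genes of migrating dendritic cells, held 9 cells of cHet PD with 8005 CPM of H2-Aa and 0 UMIs of H2-DMa. Over all genes, the cHet PD cells held 36667 UMIs in the Langerhans-like, 32418 in the Retnla and 49721 in the Fscn1 sub-cluster. H2-DMa therefore rests there on few UMIs, and these levels are given without intervals. Another Langerhans-like sub-cluster held 6 cells of cKO PD, 23 of cHet PD and 0 of either control, so it allowed no such comparison. The 6 plasmacytoid-like cells, all from controls, held 4 UMIs of the chains and Cd74 in all.

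**Figure D1:**
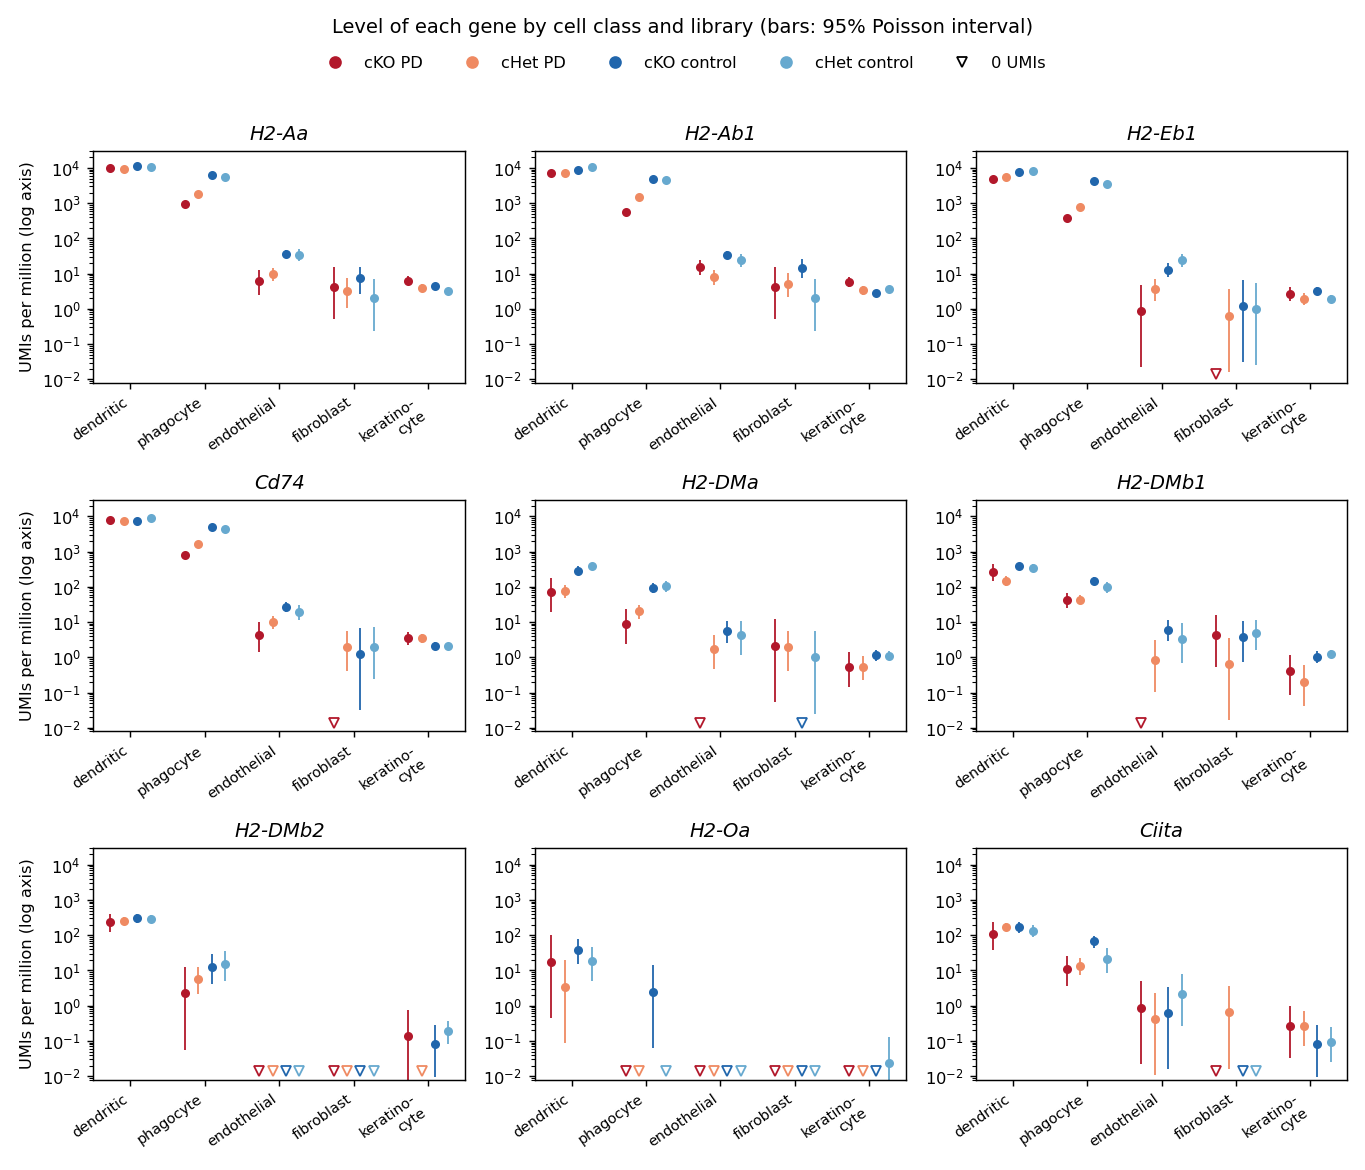
Level of each gene (CPM, log axis) in 5 cell classes, with 1 point per library (cKO PD, cHet PD, cKO control, cHet control), 95% Poisson bars and open triangles for 0 UMIs. H2-Aa lay between 9209 and 11325 CPM in all 4 dendritic groups, while in phagocytes it was 979 and 1844 CPM in the PD libraries against 6456 and 5425 CPM in the controls.

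Phagocytes carried less class II RNA in both PD libraries. H2-Aa stood at 979 CPM in cKO PD and 1844 CPM in cHet PD, against 6456 CPM in cKO control and 5425 CPM in cHet control. H2-Ab1 stood at 560 CPM in cKO PD and 1462 CPM in cHet PD, against 5037 CPM in cKO control and 4449 CPM in cHet control. H2-Eb1 stood at 369 CPM in cKO PD and 796 CPM in cHet PD, against 4186 CPM in cKO control and 3553 CPM in cHet control. For each of these chains both PD libraries lay below both controls, and cKO PD was the lowest of the 4.

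Cd74 followed the chains, with 804 CPM in cKO PD and 1672 CPM in cHet PD, against 4928 CPM in cKO control and 4384 CPM in cHet control. Among the editors, H2-DMb1 stood at 42.5 CPM in cKO PD and 43.4 CPM in cHet PD, against 144 CPM in cKO control and 98.9 CPM in cHet control, and so did not separate the PD libraries by genotype. H2-DMa stood at 8.96 CPM (4 UMIs) in cKO PD and 20.3 CPM (21 UMIs) in cHet PD, against 94.6 CPM (38 UMIs) in cKO control and 105 CPM (34 UMIs) in cHet control. Ciita was at 11.2 CPM (5 UMIs) in cKO PD and 13.5 CPM (14 UMIs) in cHet PD, against 67.2 CPM (27 UMIs) in cKO control and 21.6 CPM (7 UMIs) in cHet control, so its 2 control levels were 3.11-fold apart (1.32 to 8.45). H2-DMb2 had between 1 and 6 UMIs in each library, and H2-Oa had 1 UMI in all phagocytes together.

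A gene was called by size where the 2 libraries were at least 2-fold apart with 10 CPM added to both, 1 of them held 50 UMIs and the 95% interval of the ratio excluded 1. In cKO PD over cKO control, 5 of the 9 genes held enough UMIs and all 5 were called lower, with a median log2 ratio of -2.71; of 2049 genes measured, 16.1% were called lower and 17.4% higher, around a median of 0.14. Among these 5 the largest fall was that of H2-Eb1, 11.3-fold lower in cKO PD (9.65 to 13.4), followed by H2-Ab1 (9.0-fold, 7.89 to 10.3), H2-Aa (6.60-fold, 5.96 to 7.32) and Cd74 (6.13-fold, 5.47 to 6.88). H2-DMb1 was 3.39-fold lower (1.99 to 6.03). H2-DMa and Ciita, below 50 UMIs, had ratios of 0.0947 (0.0246 to 0.263) and 0.167 (0.0501 to 0.439).

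In cHet PD over cHet control, 4 of 4 genes measured were called lower, with a median log2 ratio of -1.58; of 3231 genes, 9.13% were called lower and 15.1% higher, around a median of 0.10. Among these 4, H2-Eb1 was the furthest apart, 4.46-fold lower in cHet PD (4.08 to 4.89), with H2-Ab1 at 3.04-fold (2.83 to 3.27), H2-Aa at 2.94-fold (2.76 to 3.14) and Cd74 at 2.62-fold (2.44 to 2.81). H2-DMa and H2-DMb1, below 50 UMIs, had ratios of 0.193 (0.106 to 0.342) and 0.439 (0.273 to 0.714), and Ciita had 0.625 (0.236 to 1.83).

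Between the PD libraries, cKO PD over cHet PD, 3 of 4 genes measured were called lower: H2-Ab1 was 2.61-fold lower in cKO PD (2.28 to 3.0), H2-Eb1 2.15-fold (1.82 to 2.56) and Cd74 2.08-fold (1.86 to 2.34). H2-Aa was 1.88-fold lower (1.70 to 2.10), short of the call. The median log2 ratio was -1.07, against 0.01 over 3212 genes, of which 7.41% were called lower and 3.83% higher. In cKO control over cHet control, 0 of 5 genes measured were called, where 3.37% of 1604 genes were called higher and 3.99% lower; the ratios of the chains and Cd74 lay between 1.12 and 1.19, around a median log2 ratio of 0.24 for the 5 and 0.07 for all genes. The comparisons share libraries and are not independent of each other.

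The phagocyte class was not made of the same cells in each library. One cluster had Arg1, Pdpn and Spp1 among its leading genes and held 31 of 129 phagocytes of cKO PD and 162 of 220 of cHet PD, against 24 of 60 of cKO control and 17 of 44 of cHet control. A different one was led by the monocyte genes Ly6c2, Plac8 and Chil3 and held 98 cells of cKO PD and 53 of cHet PD, against 12 of cKO control and 9 of cHet control. Another, led by the resident macrophage genes Ccl8, Cd163 and Lyve1, held 0 cells of cKO PD and 5 of cHet PD, against 24 of cKO control and 18 of cHet control.

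Within the Arg1 cluster the chains were lower in PD than in controls, but not lower in cKO PD than in cHet PD. Its control cells differed from its PD cells in marker genes, and its cKO PD cells from its cHet PD cells, as described further on. H2-Aa stood at 3137 CPM in cKO PD and 2003 CPM in cHet PD, against 10326 CPM in cKO control and 10830 CPM in cHet control. The ratio of cKO PD to cHet PD was 1.57 for H2-Aa (1.40 to 1.75), 1.43 for Cd74 (1.26 to 1.62), 1.35 for H2-Eb1 (1.12 to 1.61) and 1.09 for H2-Ab1 (0.939 to 1.26). H2-DMb1 was at 125 CPM (15 UMIs) in cKO PD and 47.6 CPM (41 UMIs) in cHet PD, against 217 CPM in cKO control and 182 CPM in cHet control. H2-Aa, H2-Eb1 and Cd74 thus had the opposite order between the PD genotypes to that of the whole class. That order rested on few cells: 5 cells held 63.5% of the UMIs of the chains and Cd74 in cKO PD, against 14.8% in cHet PD.

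In the monocyte-led cluster the order was the other way round. H2-Aa stood at 184 CPM in cKO PD and 703 CPM in cHet PD, and the same held for H2-Ab1 (119 CPM in cKO PD, 609 CPM in cHet PD), H2-Eb1 (58.2 CPM in cKO PD, 214 CPM in cHet PD) and Cd74 (138 CPM in cKO PD, 616 CPM in cHet PD). There, 3 of 3 genes measured were called lower in cKO PD over cHet PD, against 3.62% of 1243 genes. The ratios were 0.261 for H2-Aa (0.187 to 0.362), 0.196 for H2-Ab1 (0.131 to 0.288) and 0.224 for Cd74 (0.153 to 0.323). Most of this RNA sat in few cells: 5 cells held 82.8% of the UMIs of the chains and Cd74 in cKO PD, and 65.6% in cHet PD. In the 9 cells of cHet control, 1 cell held 259 of 265 such UMIs.

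The resident-led cluster could be compared between controls only. H2-Aa was at 4981 CPM in cKO control and 2165 CPM in cHet control, and Cd74 at 4092 CPM in cKO control and 1714 CPM in cHet control. All 24 such cells of cKO control held a UMI of the chains or Cd74, against 13 of 18 of cHet control. The 5 cells of cHet PD stood at 3100 CPM of H2-Aa.

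Counted cell by cell, the control cells of the Arg1 cluster formed 1 block and the PD cells a wide spread. H2-Aa, H2-Ab1, H2-Eb1 and Cd74 together made up a median of 0.0559% of a cell's UMIs in cKO PD and 0.364% in cHet PD, against 3.32% in cKO control and 3.33% in cHet control. Cells with at least 10 such UMIs were 41.9% in cKO PD and 58.6% in cHet PD, against 100% in both controls. The medians therefore had cKO PD below cHet PD, unlike the summed levels. The highest PD cells reached 3.34% in cKO PD and 6.21% in cHet PD, inside the range of the controls, and the lowest control cell held 0.719%. Dendritic cells had medians of 3.35% in cKO PD and 2.96% in cHet PD, against 3.25% in cKO control and 3.75% in cHet control.

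The PD cells of this cluster split by state when clustered again. Most cells of cKO PD, 18 of 31, fell into a sub-cluster led by the neutrophil gene Ngp, with 28 of 162 of cHet PD. Their medians were 0.0320% in cKO PD and 0.0805% in cHet PD. The sub-cluster led by Krt6a held 2 cells of cKO PD and 12 of cHet PD, with medians of 0.115% and 0.0210%. A sub-cluster led by Inhba, Rsad2, Ccl5 and Nos2 held 6 cells of cKO PD and 49 of cHet PD, with medians of 2.88% in cKO PD and 1.44% in cHet PD. A sub-cluster led by Spp1, Ctsk and Cd36, with Arg1 among its leading genes, held 1 cell of cKO PD and 27 of cHet PD, and those of cHet PD had a median of 0.0209%. One led by Cxcl9, an interferon-gamma target, with Ccl8 and Saa3, held 44 cells of cHet PD with a median of 0.299%. All 41 control cells fell into a further sub-cluster, which held 3 cells of cKO PD and 2 of cHet PD. The control cells lacked Arg1 (0 UMIs in both control libraries, against 99.9 CPM in cKO PD and 1321 CPM in cHet PD) and had more C1qa (133 CPM in cKO PD and 150 CPM in cHet PD, against 685 CPM in cKO control and 801 CPM in cHet control), so the name of the cluster fits its PD cells only. Lyz2 was at 1423 and 952 CPM in cKO control and cHet control, against 5451 and 9844 CPM in cKO PD and cHet PD. Conventional dendritic markers summed to 3102 and 3602 CPM in cKO control and cHet control, against 1515 and 1335 CPM in the matching PD libraries. How much of the lower chain level in PD came with this difference in cells was not tested.

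**Figure D2:**
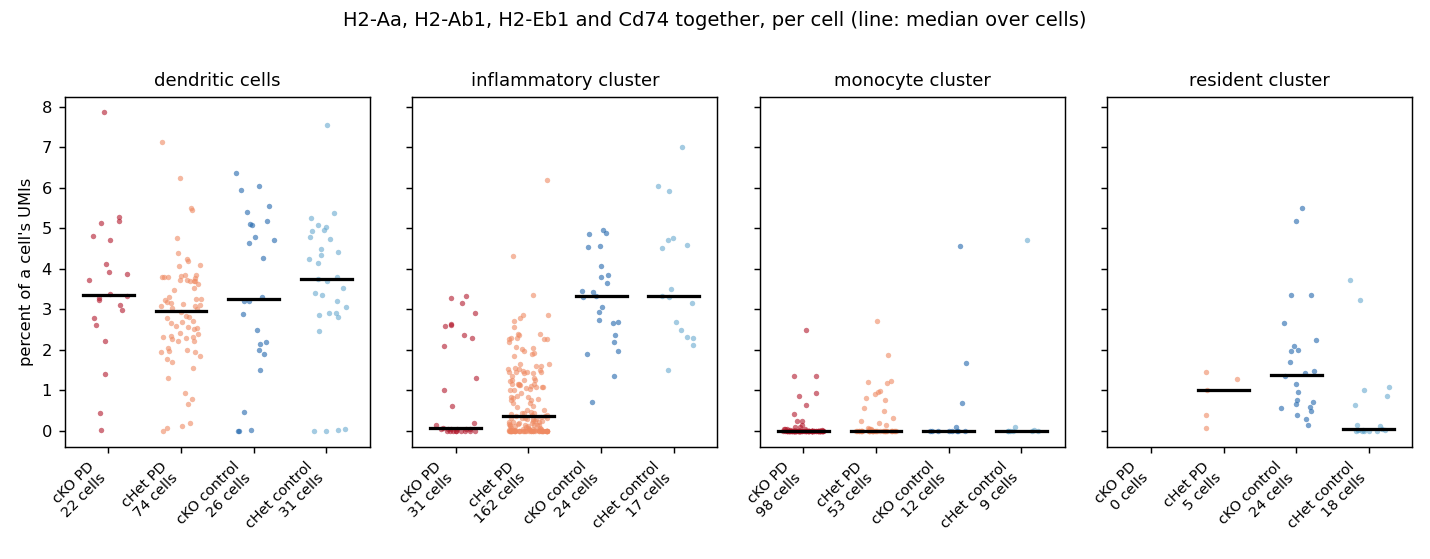
Percent of a cell's UMIs taken by H2-Aa, H2-Ab1, H2-Eb1 and Cd74 together, 1 point per cell, by library, in dendritic cells and in the Arg1 (inflammatory), monocyte-led and resident-led phagocyte clusters; black lines are medians over cells. In the inflammatory cluster the medians of cKO PD and cHet PD were 0.0559% and 0.364%, and those of cKO control and cHet control were 3.32% and 3.33%.

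Markers of other cells moved with some of these values. Summed neutrophil markers in phagocytes stood at 6568 CPM in cKO PD (18 of 22 above 0) and 3508 CPM in cHet PD (15 of 22), against 548 CPM in cKO control (13 of 22) and 899 CPM in cHet control (14 of 22). Keratinocyte markers stood at 3352 CPM in cKO PD and 6276 CPM in cHet PD, against 3868 CPM in cKO control and 5135 CPM in cHet control, with 32 to 35 of 36 above 0. Conventional dendritic markers stood at 1478 CPM in cKO PD and 1379 CPM in cHet PD, against 3019 CPM in cKO control and 3457 CPM in cHet control, with 17 to 22 of 24 above 0. Langerhans cell, B cell and T or NK cell markers summed to 2333, 94.1 and 443 CPM in cKO PD and 1968, 35.7 and 1378 CPM in cHet PD, against 1421, 199 and 214 CPM in cKO control and 1310, 201 and 368 CPM in cHet control. Leaving out the sub-clusters led by Krt6a and by the neutrophil gene Ngp kept the counts of genes called in phagocytes. Those sub-clusters lay within the Arg1 cluster, so no monocyte-led cell was left out. Neutrophil markers summed to 7620 CPM in cKO PD and 5805 CPM in cHet PD in the monocyte-led cluster. In the Arg1 cluster they summed to 3711 CPM in cKO PD and 3180 CPM in cHet PD. The part of neutrophil markers in the monocyte-led cluster was not tested, and neither was that of dendritic markers.

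The balance of the transcripts to each other also differed between PD and control. For every 100 UMIs of H2-Aa, phagocytes held 37.8 of H2-Eb1 in cKO PD (31.4 to 45.3) and 43.2 in cHet PD (39.7 to 46.9), against 64.8 in cKO control (60.9 to 69.0) and 65.5 in cHet control (60.7 to 70.6). Dendritic cells held 47.7 in cKO PD (41.2 to 55.1) and 58.8 in cHet PD (55.2 to 62.6), against 66.4 in cKO control (61.9 to 71.2) and 73.1 in cHet control (68.7 to 77.8). In both classes each PD library lay below both controls, and the intervals of PD and control did not overlap in phagocytes. H2-Ab1 was lower against H2-Aa in cKO PD phagocytes, with 57.2 per 100 H2-Aa in cKO PD (48.8 to 67) and 79.3 in cHet PD, against 78.0 in cKO control and 82.0 in cHet control.

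H2-DMa was low in PD dendritic cells relative to Cd74 as well as in level. Per 100 UMIs of Cd74, dendritic cells held 0.899 of H2-DMa in cKO PD (0.244 to 2.32) and 1.02 in cHet PD (0.640 to 1.55), against 4.03 in cKO control (2.99 to 5.32) and 4.31 in cHet control (3.42 to 5.35). In phagocytes the values were 1.11 in cKO PD and 1.21 in cHet PD, against 1.92 in cKO control and 2.40 in cHet control, with overlapping intervals.

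H2-DMb2, subject to the read sharing with H2-DMb1 given above, differed between the classes more than between the libraries. Per 100 UMIs of Cd74, H2-DMb2 was at 2.92 in cKO PD and 3.45 in cHet PD, against 4.19 in cKO control and 3.24 in cHet control, in dendritic cells. In phagocytes it was at 0.279 in cKO PD and 0.346 in cHet PD, against 0.253 in cKO control and 0.352 in cHet control, and in every library its interval lay below that of dendritic cells, apart from cKO PD, where a single UMI gave an upper bound of 1.56 against a lower bound of 1.54. H2-DMb1 was in both classes, at 3.37, 2.0, 5.35 and 3.85 per 100 Cd74 in dendritic cells of cKO PD, cHet PD, cKO control and cHet control, and 5.29, 2.60, 2.93 and 2.26 in phagocytes of the same libraries.

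**Figure D3:**
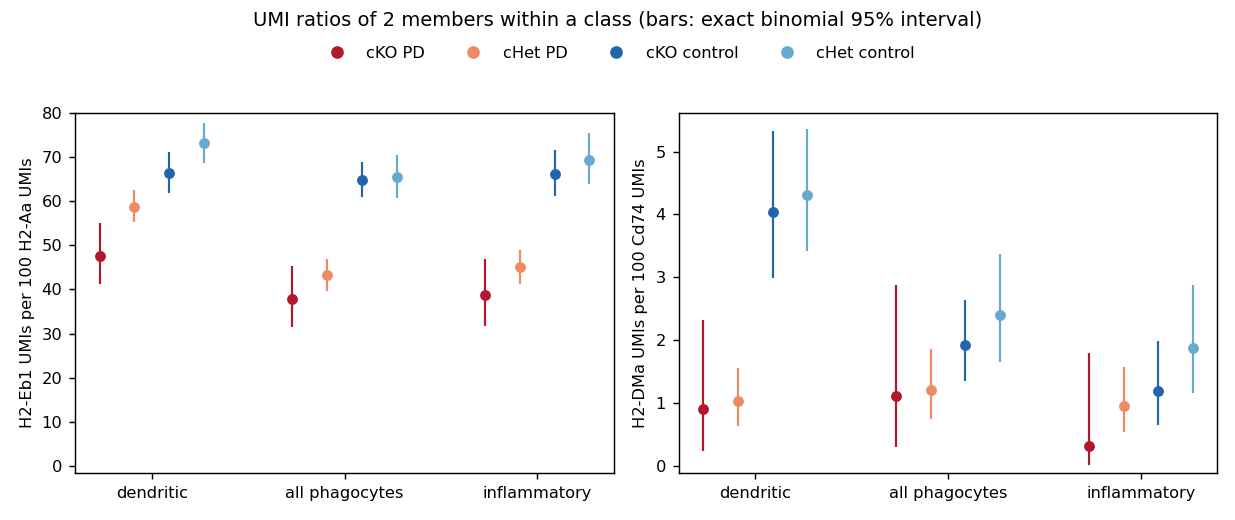
UMIs of H2-Eb1 per 100 of H2-Aa (left) and of H2-DMa per 100 of Cd74 (right) in dendritic cells, all phagocytes and the Arg1 (inflammatory) cluster, 1 point per library with exact binomial 95% bars. H2-Eb1 per 100 H2-Aa in phagocytes was 37.8 and 43.2 in cKO PD and cHet PD, below 64.8 and 65.5 in the controls; H2-DMa per 100 Cd74 in dendritic cells was 0.899 and 1.02, below 4.03 and 4.31.

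B cells were too few to compare, and their cluster was led by Igkc and Jchain, genes of antibody-making cells. Cd74 was at 932 CPM in cKO PD (7 cells) and 721 CPM in cHet PD (13 cells), against 582 CPM in cKO control (3 cells) and 636 CPM in cHet control (9 cells). H2-Aa ranged from 66.6 to 533 CPM, H2-Ab1 from 99.9 to 627 CPM, H2-Eb1 from 0 to 349 CPM and H2-DMb2 from 0 to 188 CPM. H2-DMa had 1 UMI and H2-DMb1 had 2 in the 4 libraries together. H2-Oa had 0 UMIs in B cells of every library, and Ciita had 1.

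Together the dendritic and phagocyte classes held most class II RNA of each library. Of all UMIs of the chains and Cd74, dendritic cells held 51.4% in cKO PD and 53.5% in cHet PD, against 38.7% in cKO control and 55.5% in cHet control, although they made up at most 0.825% of the cells. Phagocytes held 36.3% in cKO PD and 37.9% in cHet PD, against 51.3% in cKO control and 37.6% in cHet control.

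Outside the immune classes the transcripts were scarce, and their levels have to be read beside cells that should lack them. With every cell thinned to 1000 UMIs, cells with a UMI of H2-Aa, H2-Ab1, H2-Eb1 or Cd74 were 3.28% of T or NK cells in cKO PD and 4.62% in cHet PD, against 1.56% in cKO control and 0% in cHet control (0 of 48, upper bound 7.40%). Among neutrophils they were 0.579% in cKO PD and 7.74% in cHet PD, against 0% in cKO control (0 of 24, upper bound 14.2%) and 2.7% in cHet control. Before thinning, T or NK cells had shares of 3.54% and 5.19% in cKO PD and cHet PD, against 4.69% and 0% in cKO control and cHet control. Their median UMIs were 1064 and 1586 in cKO PD and cHet PD, against 4083 and 2852 in the controls; those of neutrophils were 1361 and 959, against 4532 and 5840. A single cell held 72 of the 92 such UMIs of T or NK cells in cHet PD.

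Endothelium, whose cells can present antigen once induced, had the highest share of cells with these transcripts among the 3 tissue classes in both controls and in cHet PD. The thinned share was 1.5% in cKO PD (0.489 to 3.47) and 2.69% in cHet PD (1.58 to 4.28), against 5.18% in cKO control (2.79 to 8.69) and 2.76% in cHet control (0.757 to 6.91); unthinned it was 3.47% and 5.71% in cKO PD and cHet PD, against 21.1% and 12.4% in cKO control and cHet control, at median depths of 1825, 1928, 4600 and 4645 UMIs. The thinned PD shares lay below those of T or NK cells of the same library. Against neutrophils, the thinned endothelial share was lower in cHet PD but higher in cKO PD. Against fibroblasts and keratinocytes, given further on, it was higher in cHet PD and lower in cKO PD. Whether either PD share exceeded background is not settled by these classes. The thinned control shares lay above those of T or NK cells, with overlapping intervals, so that at this depth no difference was detectable. Unthinned, the control shares lay above the intervals of T or NK cells (0.977 to 13.1 in cKO control, 0 to 7.40 in cHet control), and 2 of 96 pericytes of cKO control and 0 of 42 of cHet control held such a UMI, at median depths of 5301 and 4487 UMIs. Of neutrophils, 23 of 24 in cKO control and 34 of 37 in cHet control held none, at median depths of 4532 and 5840 UMIs. These neutrophils are too few to show whether the endothelial shares exceeded theirs.

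In level, endothelial H2-Aa stood at 6.19 CPM (7 UMIs) in cKO PD and 9.65 CPM (23 UMIs) in cHet PD, against 36.1 CPM (59 UMIs) in cKO control and 34.5 CPM (32 UMIs) in cHet control. H2-Ab1 stood at 15.9 CPM in cKO PD and 7.97 CPM in cHet PD, against 33.7 CPM in cKO control and 24.8 CPM in cHet control. H2-Eb1 ranged from 0.884 CPM in cKO PD to 24.8 CPM in cHet control, and Cd74 from 4.42 CPM in cKO PD to 27 CPM in cKO control. In these summed levels both PD libraries lay below both controls for all 4 transcripts. For H2-Ab1 the intervals of cKO PD (9.43 to 25.1) and cHet control (15.7 to 37.2) overlapped. The Cd74 intervals of cHet PD and cHet control overlapped as well. In cHet control 1 cell held 14 of the 23 UMIs of H2-Ab1, so the order for that gene rests on few cells.

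By size, 1 of 2 genes measured was called lower in cKO PD over cKO control, H2-Aa, against 6.94% of 5333 genes called lower and 5.31% higher; its ratio was 0.171 (0.0660 to 0.375). The call ended when cells were thinned, and also when the 1 cell of each library with the most of this RNA was left out. That cell held 8 of 31 UMIs of the 4 transcripts in cKO PD and 7 of 75 in cHet PD, against 39 of 179 in cKO control and 51 of 96 in cHet control. In cKO control over cHet control, 0 of 2 genes were called, against 0.677% of 5172 genes higher and 0.58% lower. In the other 2 comparisons no gene held 50 UMIs. H2-DMa had 0 to 9 UMIs per library, H2-DMb1 0 to 10 and Ciita 1 or 2, and H2-DMb2 and H2-Oa had 0 in every library.

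Keratinocytes, the largest class, had low levels of every member. H2-Aa stood at 6.33 CPM in cKO PD and 3.95 CPM in cHet PD, against 4.56 CPM in cKO control and 3.19 CPM in cHet control. H2-Ab1 lay between 2.82 and 5.79 CPM, H2-Eb1 between 1.94 and 3.29 CPM and Cd74 between 2.07 and 3.50 CPM. The thinned share of cells was 1.85% in cKO PD and 1.17% in cHet PD, against 1.04% in cKO control and 0.978% in cHet control. Some clusters with keratinocyte genes missed the naming rule and lay outside this class. One with Col17a1 held 869 cells of cKO PD and 2038 of cHet PD, at 3.75 and 3.07 CPM of H2-Aa. Another with Krt5 and Krt14 held 1601 cells of cKO control, at 4.67 CPM. Both had few cells of the other libraries, so the class did not cover the same part of the epithelium in each library.

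No member was called in keratinocytes: 0 of 4 in cKO PD over cKO control (2.27% of genes higher and 2.3% lower), 0 of 5 in cHet PD over cHet control (3.71% and 4.12%), 0 of 3 in cKO PD over cHet PD (0.535% and 0.689%) and 0 of 5 in cKO control over cHet control (0.168% and 0.193%). H2-DMb1 was at 0.404 CPM (3 UMIs) in cKO PD and 0.201 CPM (3 UMIs) in cHet PD, against 1.03 CPM in cKO control and 1.24 CPM in cHet control. H2-DMa stood at 0.539 and 0.536 CPM in cKO PD and cHet PD, against 1.15 and 1.12 CPM in cKO control and cHet control. Ciita had 2 to 4 UMIs per library, H2-DMb2 0 to 8 and H2-Oa 1 in all.

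Fibroblasts held few UMIs of these genes. H2-Aa stood at 4.31 CPM in cKO PD and 3.22 CPM in cHet PD, against 7.34 CPM in cKO control and 1.99 CPM in cHet control, and H2-Ab1 at 4.31, 5.15, 14.7 and 1.99 CPM in the same libraries. No gene held 50 UMIs in any library, so none could be called. H2-Eb1, Cd74, H2-DMa and H2-DMb1 had 0 to 5 UMIs per library, Ciita had 1 UMI in all, and H2-DMb2 and H2-Oa had 0. The thinned share was 1.87% in cKO PD and 0.974% in cHet PD, against 1.72% in cKO control and 0.694% in cHet control.

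**Figure D4:**
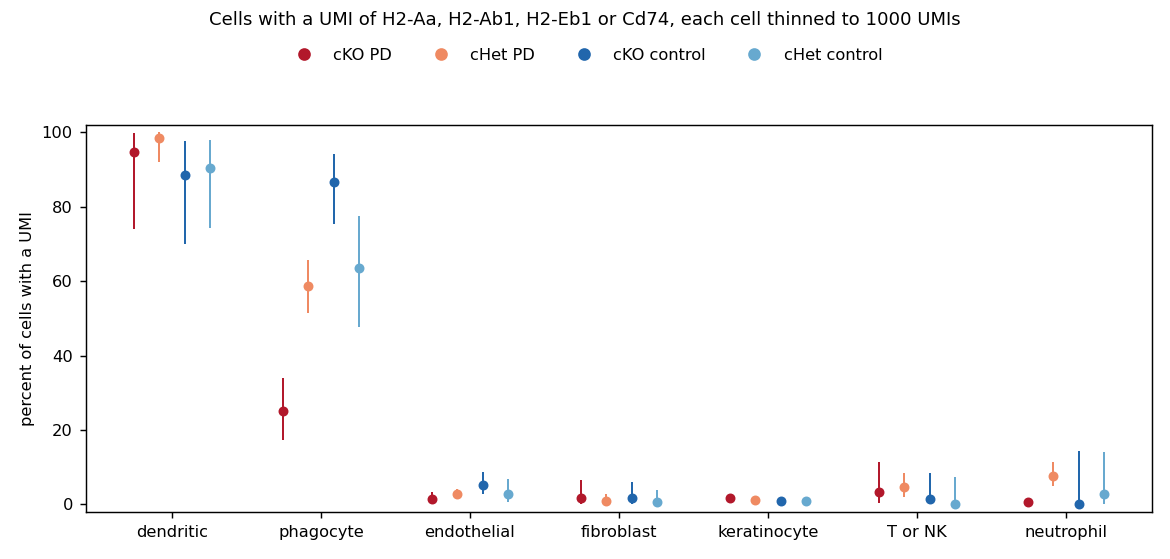
Percent of cells with a UMI of H2-Aa, H2-Ab1, H2-Eb1 or Cd74 after every cell was thinned to 1000 UMIs, by class and library, with exact binomial 95% bars. Phagocytes stood at 25% in cKO PD and 58.6% in cHet PD, against 86.7% in cKO control and 63.6% in cHet control, while endothelium, fibroblasts and keratinocytes stayed between 0.694% and 5.18%.

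Of 27 other genes of the route, 24 were in the tables. In phagocytes, cKO PD over cKO control, 2 of 11 measured were called higher and 2 lower, with a median log2 ratio of -0.53, where 17.4% of all genes were called higher and 16.1% lower. In cHet PD over cHet control 4 of 16 were called higher and 2 lower (median 0.35), where all genes gave 15.1% higher and 9.13% lower. In cKO PD over cHet PD 0 of 16 were called higher and 6 lower (median -0.27), where all genes gave 3.83% higher and 7.41% lower. In cKO control over cHet control 0 of 10 were called higher and 1 lower (median -0.02), where all genes gave 3.37% higher and 3.99% lower. The counts between PD and control were near the shares of all genes.

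Among the interferon-gamma genes upstream of Ciita, Irf1, a transcription factor that binds the interferon-induced Ciita promoter, stood at 33.6 CPM in cKO PD and 88.8 CPM in cHet PD, against 226 CPM in cKO control and 247 CPM in cHet control, and was called lower in cKO PD and in cHet PD over their controls and in cKO PD over cHet PD. Ifngr1, a receptor chain, stood at 98.5 and 94.6 CPM in cKO PD and cHet PD, against 236 and 241 CPM in cKO control and cHet control, and was called lower in both genotypes. Jak2, a kinase of that receptor, went the other way, with 374 and 198 CPM in cKO PD and cHet PD, against 64.7 and 80.3 CPM in cKO control and cHet control. Of the genes of this list, 1 of 5 measured was called higher and 2 lower in cKO PD over cKO control. In cHet PD over cHet control 2 of 6 were called higher and 2 lower. The shares of all genes for these comparisons are given above.

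Of the proteases that trim the invariant chain, Ctsl was called higher in PD in both genotypes, at 3.54-fold (2.7 to 4.72) in cKO and 4.82-fold (4.0 to 5.87) in cHet. Ctss stood at 2875 CPM in cKO PD and 9053 CPM in cHet PD, against 4124 CPM in cKO control and 4851 CPM in cHet control. Ctss, Ctsl, Ctsb and Lgmn were called lower in cKO PD over cHet PD, with ratios between 0.318 and 0.441. Ctss, Ctsl and Lgmn lead the Arg1 cluster, which held 31 of 129 phagocytes in cKO PD and 162 of 220 in cHet PD; the part of that make-up was not tested apart from ratios within clusters. Within the Arg1 cluster the ratios of the 4 proteases lay between 0.581 and 1.03, and within the monocyte-led cluster Lgmn was called lower (ratio 0.387, 0.259 to 0.575). Of the factors Ciita acts through, Rfx5, Rfxap and Rfxank never held 50 UMIs, and Nfya, Nfyc and Creb1, where measured, were not called. Cd86, a costimulatory ligand, was at 264 and 196 CPM in cKO PD and cHet PD, against 455 and 349 CPM in cKO control and cHet control, with ratios of 0.580 (0.456 to 0.735) and 0.561 (0.444 to 0.713), short of a call.

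Over 30 pairs of class and library with at least 40 cells, Cd86 was also the gene whose level most resembled that of the chains and Cd74 (Pearson r = 0.955 on log2 CPM with 10 added, among 8255 genes). Aif1 (0.945), Dcstamp (0.942), Ptpro (0.932), Ly86 (0.925), Kcnk13 (0.925), Hpgds (0.922) and Csf1r (0.920) followed. Of the members outside that mean, H2-DMb1 had r = 0.959, H2-DMa 0.939, Ciita 0.886 and H2-DMb2 0.722. The pairs share libraries, depth and class definitions, so these values are a description only.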

How the data were processed

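The authors deposited unnormalized UMI counts for every gene and cell barcode; fastp, STARsolo 2.7.10a and the mm10 build are listed in the submitters' processing notes, and annotation and the treatment of multi-mapped reads are not given in the sources used here. The extraction label describes BD Rhapsody libraries and the description label 10x Genomics. Barcodes with at least 200 genes and at most 20% mitochondrial UMIs were kept (6595 of cKO PD, 8967 of cHet PD, 7673 of cKO control, 7915 of cHet control) and clustered in scanpy 1.11.5 (2000 variable genes, 30 components, 15 neighbours, Leiden resolution 1, seed 1), with the 9 genes, H2-Ob, H2-Eb2 and Itga9 left out. Immune clusters (Ptprc of 100 CPM or more) went through a further round. Names needed 3 markers among a cluster's top 50 genes, 1 of them in the top 10. Doublets were not called. UMIs were summed per class and library; intervals of levels are exact Poisson, of shares exact binomial (Clopper-Pearson) and of ratios conditional binomial, at 95%, for counting error only. Of 0 UMIs, up to 3 remain possible. The calling rule was tested on simulated data. A keratinocyte cluster with Ptprc was kept apart from keratinocytes. Cells are not replicates, and with 1 library per group no test was made. All 9 genes are named with values; other genes come only from 5 lists of the route and the 8 most alike. The genes, lists, markers and alternatives were chosen with earlier results of these data known. edgeR 4.0.16 served only for TMM scaling, as an alternative. The counts of called genes of the route cover all genes measured, some of which are not reported here by name.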

Additional observations from a re-analysis of the deposited data

How the results depend on the processing

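Counts of genes called in phagocytes, endothelium, fibroblasts and keratinocytes were recomputed under 10 settings chosen at the outset and 3 chosen after seeing the data. Of these counts, 350 stayed within 1.5 times the reported one and 10 did not. Most reported counts were 0, among them all of fibroblasts and keratinocytes, and no fibroblast gene held 50 UMIs. The 350 therefore say little about stability. In phagocytes the lower calls of all 4 comparisons stayed within 1.5 times the reported counts of 5, 4, 3 and 0. In cKO control over cHet control 1 phagocyte gene was called higher with a minimum of 20 UMIs. In endothelium, cKO PD over cKO control, the 1 lower call became 0 after thinning to 1000 UMIs, with 50 CPM added, with at most 10% mitochondrial UMIs and without the top cell, 2 with 1 CPM added and 3 with a minimum of 20 UMIs; in cHet PD over cHet control 2 genes were called lower with that minimum. In fibroblasts, Leiden resolution 2 gave 1 gene called higher in cHet PD over cHet control and 1 called lower in cKO PD over cHet PD. The cause was not tested, except that fewer UMIs are asked for or fewer cells are left. Of log2 ratios 382 stayed within the interval and 64 moved, and of thinned levels 27 stayed and 28 moved; none changed sign. TMM scaling shifted the median of all genes in phagocytes by 0.11 in cKO PD over cKO control, 0.29 in cHet PD over cHet control and -0.16 in cKO PD over cHet PD, and kept the direction of every gene called. No paired analysis was possible because the groups hold a single library each. Few dendritic cells and low UMI numbers of H2-DMa, Ciita and H2-Oa limit what depth can show.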

Other observations

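An epithelial cluster led by Reg3g, Cbr2 and Adh1, genes of airway-type epithelium, held 526 cells of cKO control, 38 of cHet control and 0 of either PD library. In cKO control its H2-Aa stood at 26.9 CPM (23.0 to 31.2), H2-Ab1 at 33.6 CPM, H2-Eb1 at 14.5 CPM and Cd74 at 24.4 CPM. Over all cells named gland or airway epithelium in that library, 182 of 617 held a UMI of these transcripts, and no cell held more than 41 of the 649 UMIs. After thinning to 1000 UMIs the share was 6.16% (4.39 to 8.36), above the 1.04% (0.719 to 1.46) of keratinocytes of the same library; that of its T or NK cells was 1.56% (0.0396 to 8.40).

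A small Ptprc-bearing cluster led by Krt1 and Krt10 held 72 cells of cKO PD and 169 of cHet PD, against 24 of cKO control and 16 of cHet control. Its H2-Aa stood at 6.49 CPM in cKO PD and 287 CPM in cHet PD, against 185 CPM in cKO control and 676 CPM in cHet control. There 5 cells held 100% of the UMIs of the chains and Cd74 in cKO PD and 87.7% in cHet PD, against 99.4% in cKO control and 100% in cHet control.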
